A study of Mus musculus with 8 samples.

Results

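The Gimap genes of the mouse lie side by side on chromosome 6, and the 8 members Gimap1, Gimap3, Gimap4, Gimap5, Gimap6, Gimap7, Gimap8 and Gimap9 were taken by symbol from the RefSeq annotation of GRCm38.p6. They are 8 of the 20919 protein-coding genes of the chromosomes 1 to 19 and X whose strand was known. The interval studied ran from the start of the leftmost gene, Gimap8, to the end of the rightmost, Gimap3, with 50 kb added on either side (chr6:48597186-48820851, 224 kb). Within it, the peaks of H3K27ac, an acetylation of histone H3 found at active promoters and enhancers, were compared between a pair of ChIP-seq libraries. Both came from P5424 cells, a mouse line resembling T cell precursors. The wt library was made from unedited cells of the line. The ΔIkE120 library was made from cells in which IkE120, an upstream enhancer of Ikzf1, had been deleted on both alleles with CRISPR/Cas9. Ikzf1 encodes Ikaros, a zinc finger transcription factor of lymphocytes. The deleted line was 1 clone obtained by limiting dilution, so differences between clones and effects of the deletion cannot be told apart. The sources used here do not state whether the cells for ChIP-seq had been stimulated with PMA/ionomycin. There was 1 library per genotype, so all values below are given without a test or an error.

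Gimap genes encode GTPases of immunity-associated proteins, small GTP-binding proteins found mostly in lymphocytes. They are known for their part in the survival of T cells, and several sit on membranes of the mitochondria, the endoplasmic reticulum or lysosomes, where some of them interact with proteins of the Bcl2 family. In the thymus, their expression changes as T cells mature.

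The labels were checked against the peaks. The wt peaks covered 252 of the 252 bases of IkE120, and the ΔIkE120 peaks covered 0 of them. All 10 T lineage marker genes examined (Cd3d, Cd3e, Cd3g, Cd247, Lck, Ptcra, Bcl11b, Tcf7, Gata3 and Thy1) had a peak within 1 kb of their start in both lists. Of 6 B lineage markers, 1 had such a peak in both lists (Ebf1). Of 5 myeloid markers, 1 had it in wt (Mpo) and 0 in ΔIkE120. None of 4 fibroblast and 3 embryonic stem cell markers had a peak in either list. The wt list held 34553 peaks over 25189952 bases and the ΔIkE120 list 29902 peaks over 22143580 bases, a ratio of 0.879. Sequencing depth is not known from peak lists. Since the number, the extent and the −log10 q of peaks move with depth, a peak missing from a list does not mean that the mark was absent, and the part of depth in the differences below was not tested.

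Across the Gimap interval, fewer peaks were listed in ΔIkE120 than in wt, and they covered fewer bases. The median peak length was nearly the same, 527 bases in wt and 528 in ΔIkE120. The wt list held 11 peaks there, which covered 6635 bases or 2.97% of the interval. The ΔIkE120 list held 7 peaks, which covered 4348 bases or 1.94%. The ratio of covered bases, ΔIkE120 to wt, was 0.655, beside 0.884 over chromosome 6 and 0.879 over the whole lists. From the start of Gimap8 to the end of Gimap3, without the flanks (124 kb), 6 wt peaks covered 3848 bases and 4 ΔIkE120 peaks covered 2217 bases, a ratio of 0.576. Every ΔIkE120 peak of the interval overlapped a wt peak by at least 1 base (0 of 7 without an overlap), beside 13.6% without one among all ΔIkE120 peaks. With 7 peaks, the difference from this share was not tested. In the other direction, 4 of 11 wt peaks had no overlap in ΔIkE120, beside 25.6% of all wt peaks. The lists shared 4008 bases in the interval, which were 60.4% of the wt bases and 92.2% of the ΔIkE120 bases. Over the whole lists, these shares were 73.5% and 83.6%. The ΔIkE120 peaks of the Gimap genes therefore lay almost wholly inside the wt peaks, and between Gimap8 and Gimap3 only 22 of their bases fell outside.

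**Figure D1:**
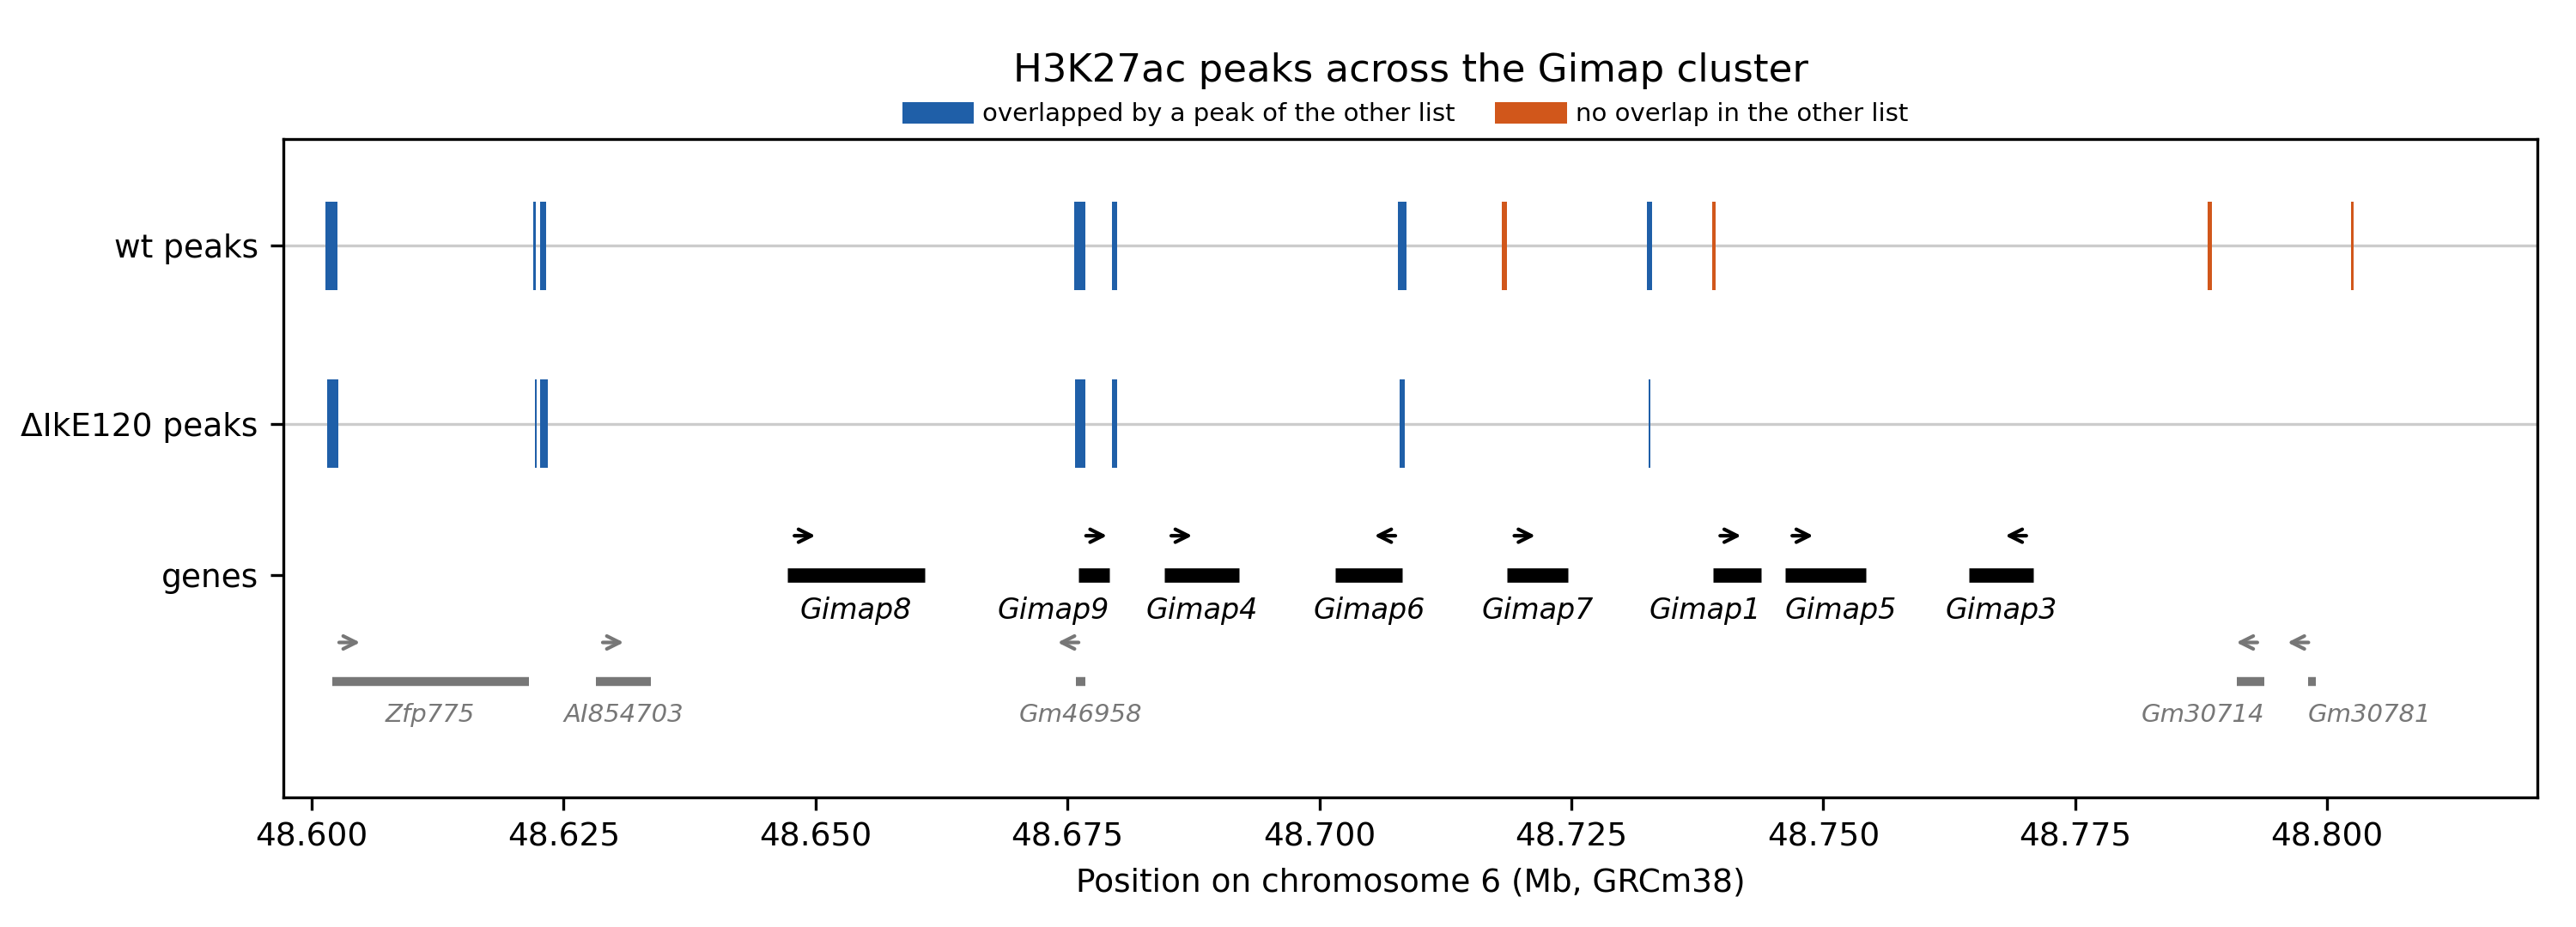
Map of the Gimap interval on chromosome 6 of GRCm38 (x axis, position in Mb), with the H3K27ac peaks of wt and ΔIkE120 drawn to scale as bars above the genes. Black bars are Gimap genes and grey bars the other genes of known strand that start in the interval, arrows point in the direction of transcription, and orange marks the 4 of 11 wt peaks that no ΔIkE120 peak overlapped.

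A peak within 1 kb of the gene start was listed for 4 of 8 Gimap genes in wt (Gimap9, Gimap6, Gimap7 and Gimap1), a share close to the 45% of all 20919 protein-coding genes with such a peak. In ΔIkE120 it was listed for 2 of 8 (Gimap9 and Gimap6), where 44.3% of all protein-coding genes had it. Of the 4 Gimap genes with a wt peak, 2 thus had it in wt alone (Gimap7 and Gimap1). Among all 9409 protein-coding genes with a wt peak at the start, 234 had it in wt alone, or 2.49%. No Gimap gene had a peak at its start in ΔIkE120 alone, as 102 genes of the annotation did. This difference of 4 against 2 members held with windows of 500 bases and of 2 kb. It was absent when the weaker peaks of each list, below its median −log10 q, were dropped, since 2 members then had a peak in each list, Gimap6 and Gimap1 in wt and Gimap9 and Gimap6 in ΔIkE120.

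Gimap1, which is needed for the maintenance of mature T and B cells, had the wt peak with the highest −log10 q of the interval. The peak spanned 394 bases over the start (chr6:48738950-48739343), with a fold enrichment of 4.5 and a −log10 q of 6.26. These values, both given by the peak caller against its background, were above those of 89.4% and 65% of all wt peaks. The gene is transcribed to the right from 48739047, so 297 of the bases of this peak lay in the gene. No ΔIkE120 peak overlapped it, and the nearest lay 6189 bases upstream of the start. Of the 12083 wt peaks with a −log10 q at least as high, 48 (0.397%) had no overlap in ΔIkE120. The 12083 reached a −log10 q of 88.2 and were not matched to the Gimap1 peak in strength or length. Their share is thus not that of peaks like it. These 48 peaks lay on 17 chromosomes, 5 of them on chromosome 6, and 11 were at the start of a protein-coding gene. Gimap1 was the lowest of them by construction, and their highest −log10 q was 14.7. No other of them lay within 1 Mb of Gimap1.

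Gimap7, whose protein forms homodimers that hydrolyse GTP, was the other gene with a start peak in wt alone. Its peak spanned 536 bases (chr6:48718053-48718588) and ended 33 bases upstream of the start at 48718621, so none of it lay in the gene. The fold enrichment was 3.56 and the −log10 q 3.73, higher than in 71.5% and 46% of all wt peaks. Of the 18675 wt peaks with a −log10 q at least as high, 741 (3.97%) had no overlap in ΔIkE120. The 18675 begin at the value of Gimap7 and include the 12083 counted for Gimap1, of which 48 had no overlap. The share of 3.97% is thus not that of peaks of its strength. The nearest ΔIkE120 peak, at the start of Gimap6, was 10129 bases away on the upstream side. Gimap7 was thus flanked in ΔIkE120 by a stretch of 24.2 kb without a peak (chr6:48708493-48732647).

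Gimap9 kept its peak in both lists. In wt it spanned 1109 bases (chr6:48675669-48676777) with a fold enrichment of 2.54 and a −log10 q of 3.78. In ΔIkE120 it spanned 1007 bases (chr6:48675771-48676777) with 3.7 and 8.4, and ended on the same base. The ratio of the fold enrichments, ΔIkE120 to wt, was 1.46, larger than in 99.6% of the 22698 peaks that overlapped a single peak of the other list and were the only one to do so. The median ratio of these peaks was 1.03, with quartiles of 0.954 and 1.1. Gimap9 was therefore on the opposite side of Gimap1 and Gimap7, with the stronger peak in ΔIkE120. Its peak also covered 946 of the 978 bases of Gm46958, an antisense lncRNA gene starting at 48676809, in either list, and H3K27ac carries no strand that would assign it to either gene.

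Gimap6, which binds a protein of the autophagy machinery, is transcribed to the left from 48708244. Its start lay under a wt peak of 833 bases (chr6:48707768-48708600) and a ΔIkE120 peak of 528 bases (chr6:48707965-48708492) that lay wholly within the former. The fold enrichment was 3.79 in wt and 4.41 in ΔIkE120, and the −log10 q 4.95 and 5.23. In ΔIkE120 the peak was thus shorter, at 0.634 of the wt length, but not lower in either value. The ratio of fold enrichments of 1.16 was larger than in 87.7% of the overlapping peaks.

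**Figure D2:**
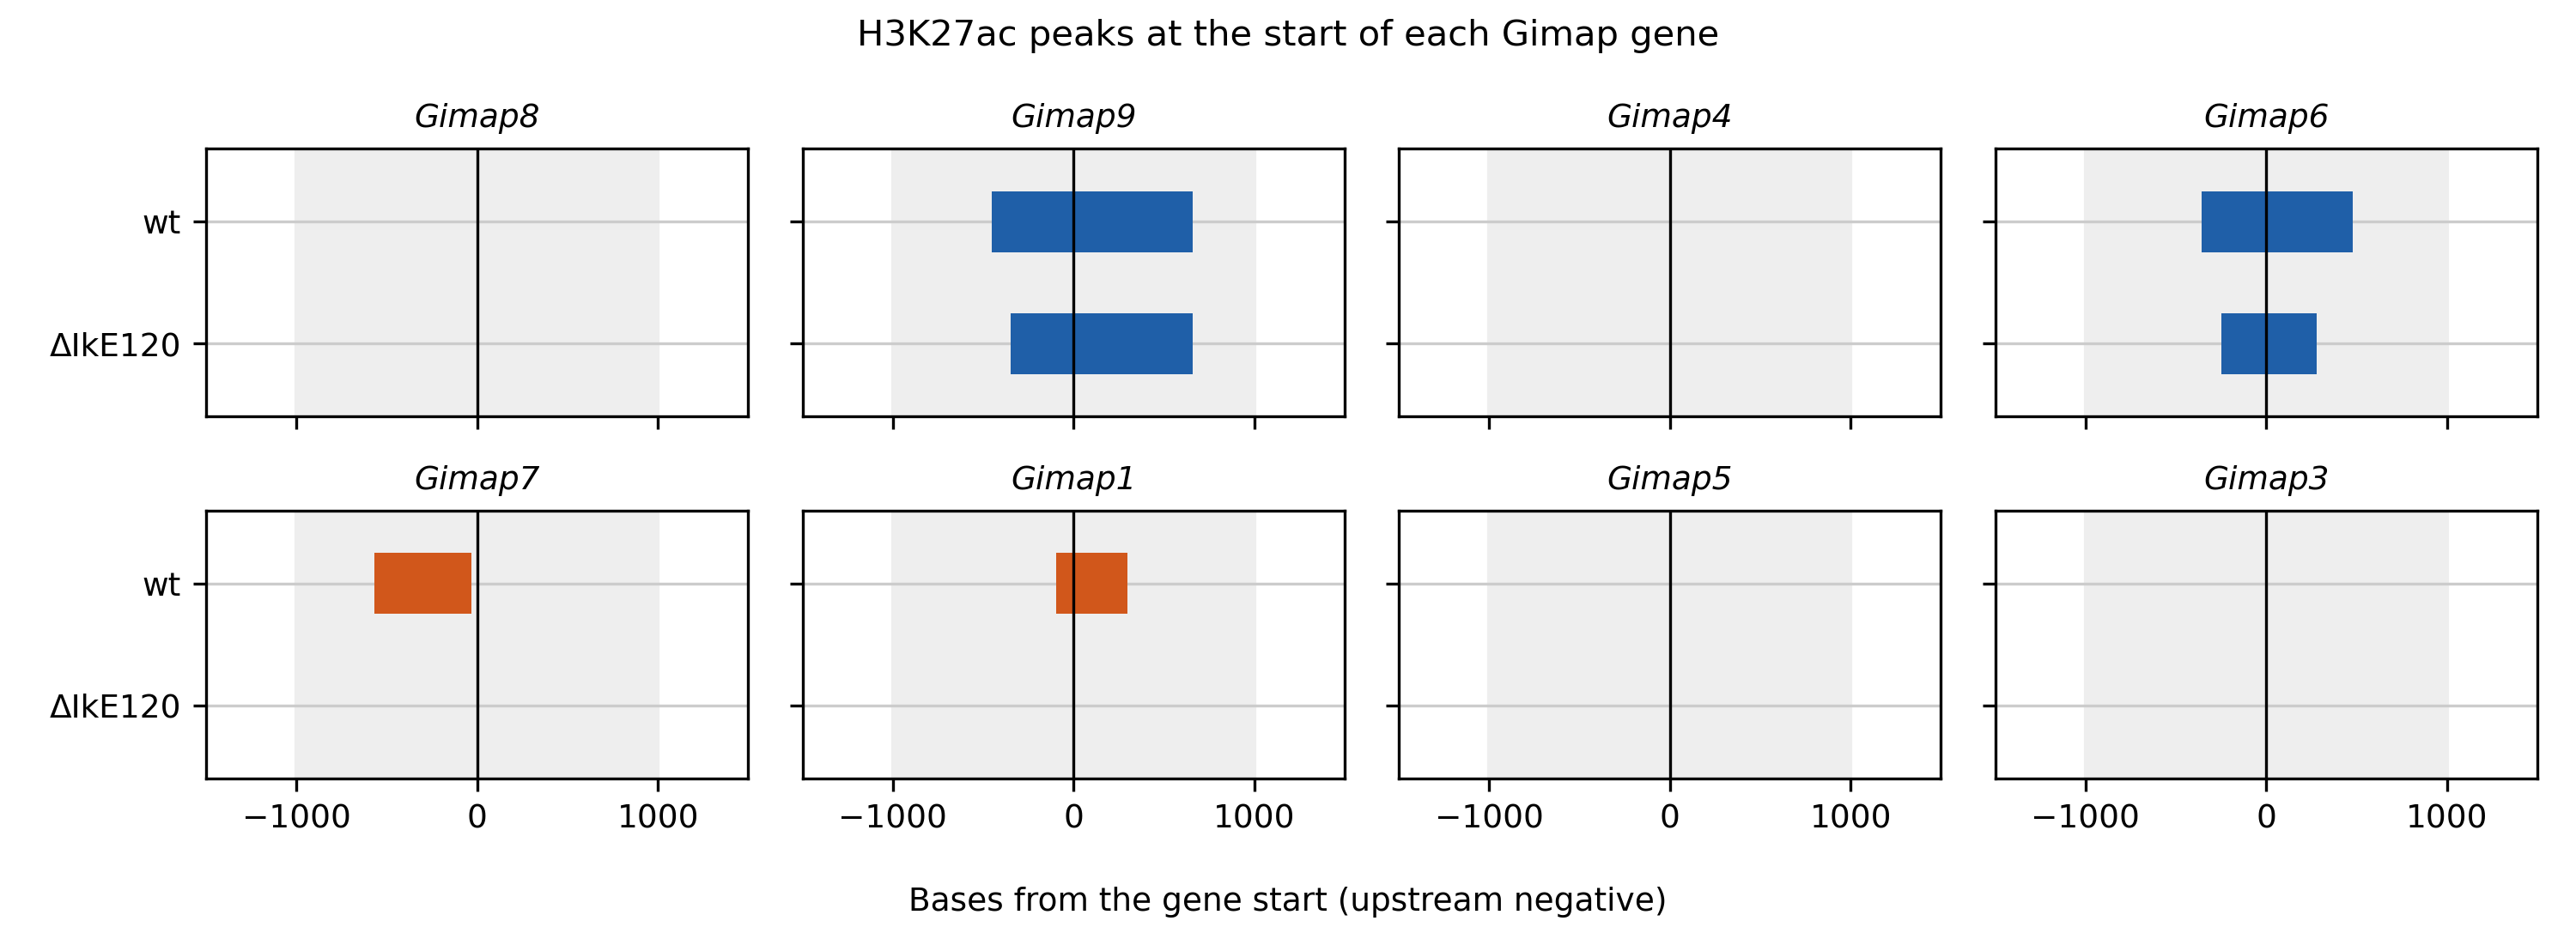
H3K27ac peaks around the start of each of the 8 Gimap genes, in genomic order (x axis, bases from the start, upstream negative; grey, the window of 1 kb on either side). Blue bars are peaks overlapped in the other list and orange bars are not: Gimap9 and Gimap6 have a bar in wt and ΔIkE120, Gimap7 and Gimap1 in wt alone, and the other 4 genes in neither.

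The remaining 4 genes had no peak at the start in either list, and none within the gene body. Gimap5, whose loss causes lymphopenia in the rat and the mouse, lay next to Gimap1, with 7150 bases between their starts. The nearest peak to its start was 6854 bases upstream in wt, the Gimap1 peak, and 13339 bases upstream in ΔIkE120. Gimap3, a close relative of Gimap5 in the mouse, was 17297 bases from a wt peak and 37993 bases from a ΔIkE120 peak. Gimap4, known as a regulator of T cell death, was 4685 and 4664 bases from the peak past Gimap9. Gimap8, which carries several GTPase domains, was farther from peaks than Gimap4, at 23936 bases in wt and 23740 bases in ΔIkE120. For Gimap8 and Gimap4 the distances thus hardly differed between genotypes, whereas for Gimap5 and Gimap3 they were longer in ΔIkE120.

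Away from gene starts, 4 wt peaks of the interval overlapped a ΔIkE120 peak, and 2 of these lay between Gimap genes. The peak between Gimap9 and Gimap4 began 328 bases past the end of Gimap9. It spanned 449 bases in wt (chr6:48679445-48679893) and 471 bases in ΔIkE120 (chr6:48679444-48679914), nearly the same stretch. Its fold enrichment was 2.81 in wt and 2.22 in ΔIkE120. The ratio of 0.791 was larger than in 1.85% of the overlapping peaks. The −log10 q was 5.31 in wt and 1.47 in ΔIkE120, where 3.3% of all peaks were lower. The peaks at the start of Gimap9 and past its end thus differed in opposite directions, with the start peak higher in ΔIkE120 and the peak past its end higher in wt.

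The peak between Gimap7 and Gimap1 lay 7836 bases past the end of Gimap7 and 6048 bases before the start of Gimap1. In wt it spanned 527 bases (chr6:48732473-48732999), with a fold enrichment of 4.09 and a −log10 q of 4.72. In ΔIkE120 it spanned 211 bases (chr6:48732648-48732858), the shortest length in that list, with 3.28 and 2.26. The length ratio was 0.4 and the ratio of fold enrichments 0.803, larger than in 2.17% and 2.34% of the overlapping peaks. This site thus had the lower value in ΔIkE120 by each measure, as the adjoining starts of Gimap7 and Gimap1 had no ΔIkE120 peak. Neither site between Gimap genes was assigned to a gene, since peaks give no contacts.

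In the flank on the side of Gimap8, all peaks were overlapped in the other list. The start of Zfp775, a zinc finger gene, had a wt peak of 1260 bases (chr6:48601336-48602595) and a ΔIkE120 peak of 1091 bases (chr6:48601523-48602613). The fold enrichment was 3.87 in wt and 4.94 in ΔIkE120, and the ratio of 1.28 was larger than in 96.8% of the overlapping peaks. The −log10 q was 5.77 in wt and 10.5 in ΔIkE120, so this start, like that of Gimap9, had the higher values in ΔIkE120. Past Zfp775 and before AI854703, a transcribed pseudogene, both lists held a peak pair away from starts, with fold ratios of 0.995 and 0.991. On the side of Gimap3, wt had a peak of 393 bases (chr6:48788148-48788540) before the lncRNA gene Gm30714, with a −log10 q of 2.96, and a peak of 249 bases (chr6:48802333-48802581) beyond Gm30781, with 2.73. Neither was overlapped in ΔIkE120, and both ranked below the median −log10 q of the wt list, 4.12. The starts of AI854703, Gm30714 and Gm30781 had no peak within 1 kb in either list. The lncRNA gene Gm38804 and the pseudogenes Gm44262 and Gm17834, whose strand was not known, had 0 bases under a peak in either list.

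Over the 7 peaks of the interval found in both lists, the fold enrichment was higher in ΔIkE120 for 3 and lower for 4. The 3 higher were those at the starts of Zfp775, Gimap9 and Gimap6. The −log10 q was higher in ΔIkE120 for 5 of the 7 and lower for 2, which were the peaks between Gimap genes. The ΔIkE120 peak was shorter for 5 and longer for 2. Over all 22698 pairs of overlapping peaks, the fold enrichment was lower in ΔIkE120 in 40.4% and the −log10 q in 53.8%. The ΔIkE120 peak was shorter in 58.4% of them. With 7 peaks, the difference of the counts from these shares was not tested. The smaller cover of the interval in ΔIkE120 thus did not go with lower values at every site.

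**Figure D3:**
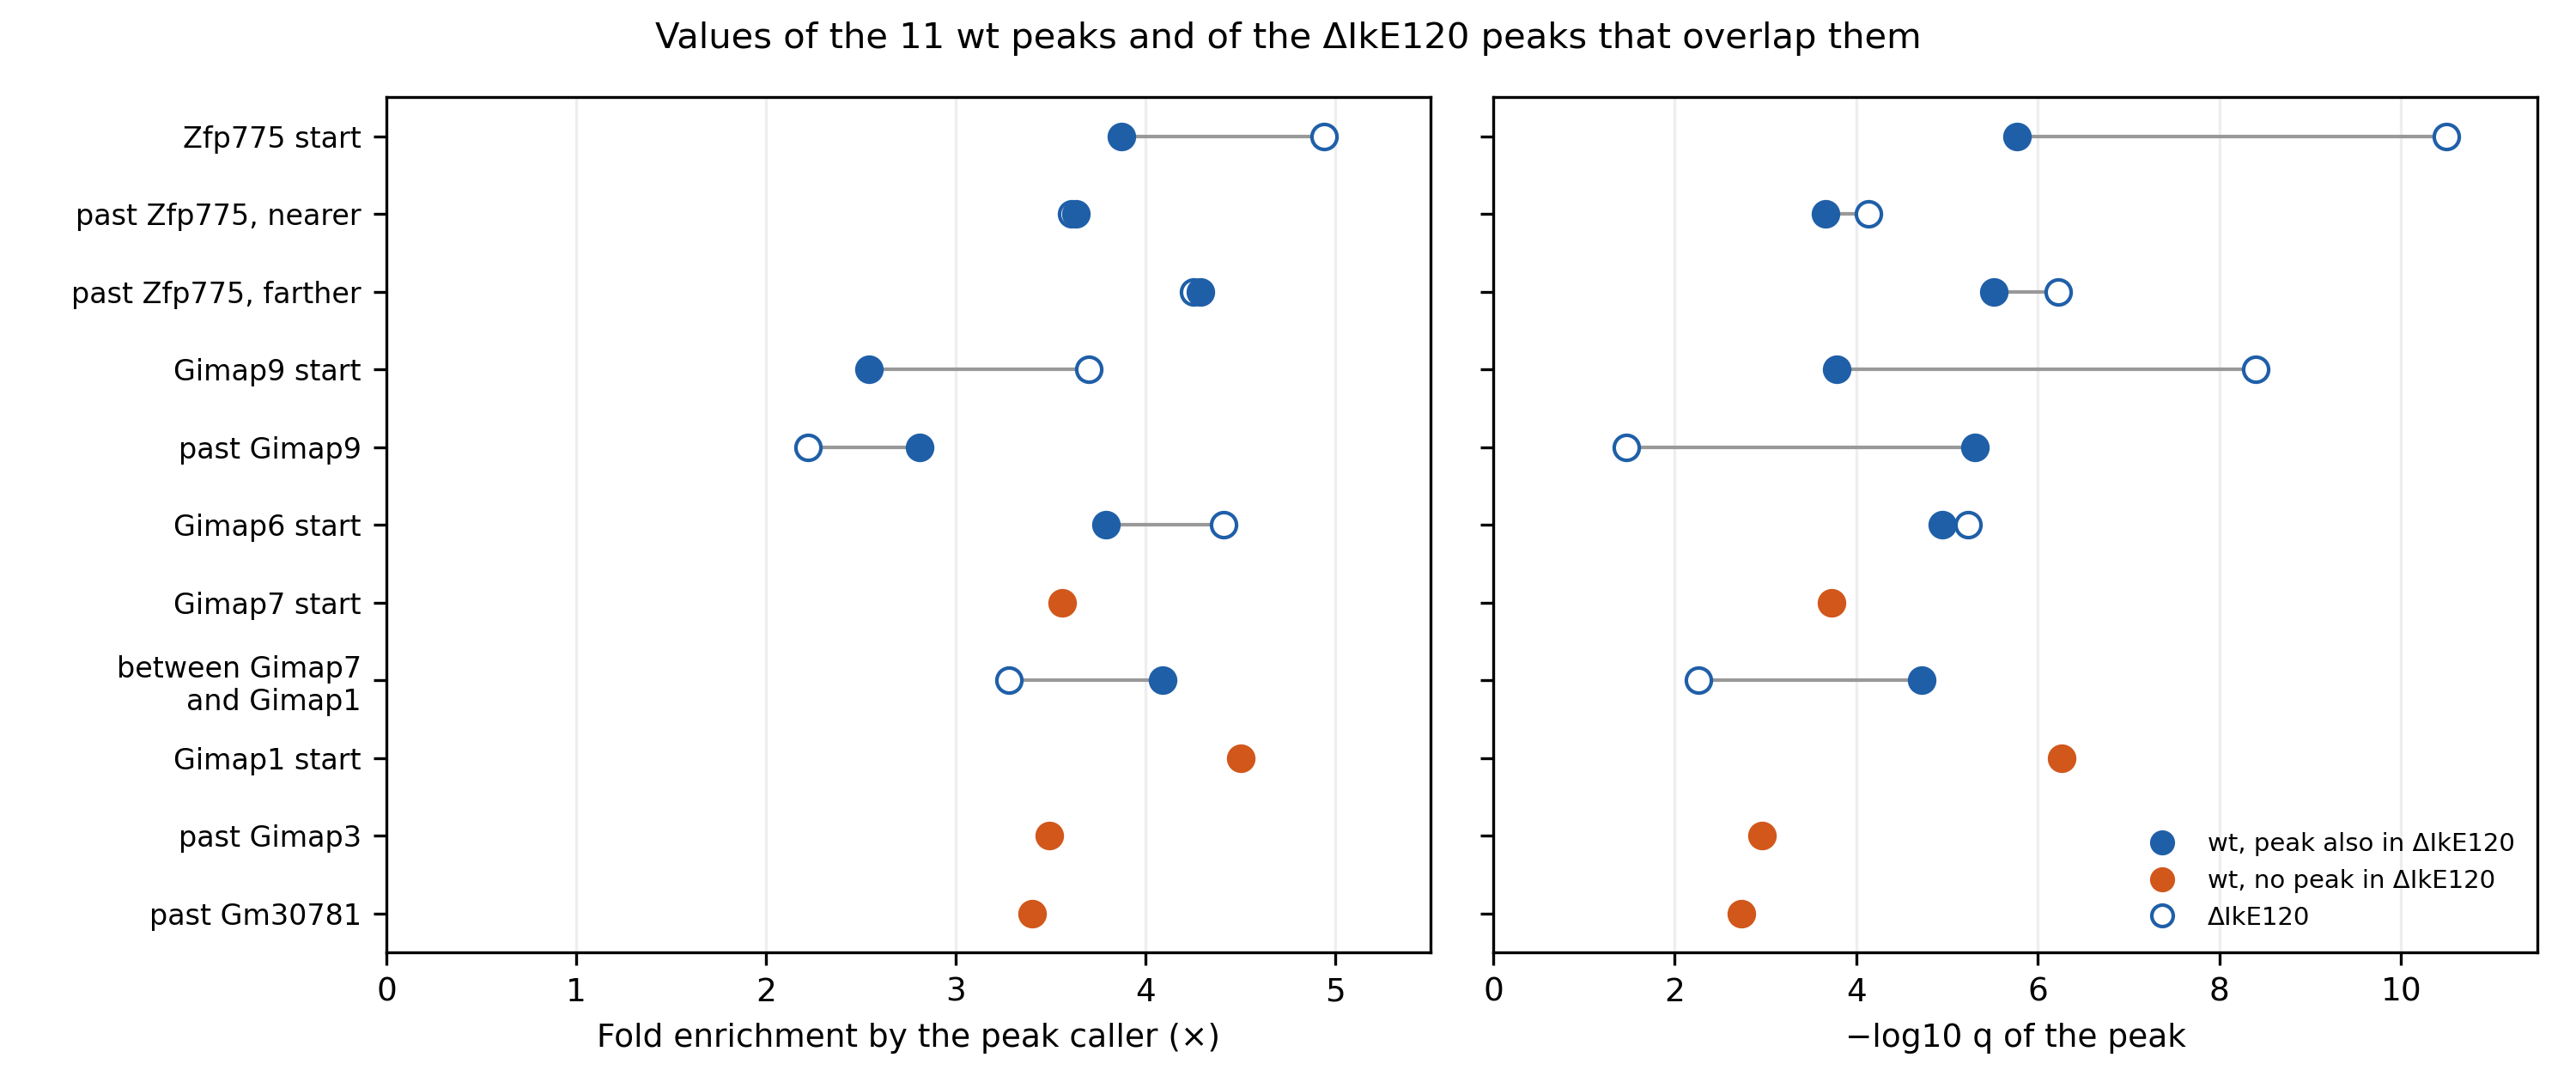
Fold enrichment (left, ×) and −log10 q (right) of the 11 wt peaks of the interval in genomic order from top to bottom (filled points) and of the ΔIkE120 peaks that overlap them (open points, joined by a line). The open points lie to the right at the Gimap9 start (3.7 against 2.54) and to the left between Gimap7 and Gimap1 (3.28 against 4.09), and 4 wt peaks have no open point.

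The spaces between peaks restate the same lists, so longer spaces in ΔIkE120 follow from the wt peaks missing there. In ΔIkE120, a stretch of 107 kb without a peak began right after the site between Gimap7 and Gimap1 (chr6:48732859-48840204) and held the starts of Gimap1, Gimap5 and Gimap3. In wt, the peaks at Gimap1 and beyond Gimap3 broke it up, and the stretch without a peak around Gimap5 and Gimap3 was 48.8 kb long (chr6:48739344-48788147). The stretch around Gimap8 was 52.4 kb in wt and 52.3 kb in ΔIkE120, and that around Gimap4 27.9 kb and 28.1 kb. The longer gaps in ΔIkE120 were thus those at Gimap7 and from Gimap1 to Gimap3.

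When peaks up to 10 kb apart were joined, the longest domain of the wt list in the interval ran from Gimap6 to Gimap7 (chr6:48707768-48718588, 10821 bases, 2 peaks), rank 1946 by length of 20239 domains. Only 1369 of its bases were under a peak. In ΔIkE120 the Gimap6 peak stood alone with 528 bases. The site between Gimap7 and Gimap1 joined the Gimap1 peak in wt to a domain of 6871 bases (chr6:48732473-48739343) and stood alone with 211 bases in ΔIkE120. The domain of the Gimap9 start and the peak past its end was 4225 bases long in wt and 4144 bases in ΔIkE120. The longest ΔIkE120 domain reaching into the interval was that of Zfp775 (chr6:48593609-48602613, 9005 bases), rank 2273 of 18190. These lengths depended on the joining distance, as the gap between the Gimap6 and Gimap7 peaks of wt was 9452 bases. Joined at 5 kb, the longest domain was 4225 bases in wt and 4144 in ΔIkE120. At 20 kb it was 44124 bases in wt and 44584 in ΔIkE120. In both lists this was the domain of Zfp775, extended over a gap of 19.4 kb in wt and 19.5 kb in ΔIkE120, and it held no Gimap start. Among the Gimap genes, joining at 20 kb bridged the wt gaps of 9452, 13884 and 5950 bases from Gimap6 to Gimap1. In ΔIkE120 the Gimap6 peak still stood alone, between gaps of 28050 and 24155 bases.

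The 250 bases before the start given in the RefSeq promoter table were read for all 8 Gimap genes, and searched on both strands for 7 short motifs. For Gimap8 and Gimap9 the start in this table lies inside the gene record used above, so 48 and 14 of the 250 bases belong to the record. These were TGGGAA (bound by Ikaros), TGTGGT (Runx factors), CTTTGA (Tcf and Lef factors), AGATAA (zinc finger factors such as Gata3), CAGGTG (E proteins), CCGGAA (Ets factors) and TATAAA, a form of the core promoter element that binds the TATA-binding protein. Of 17274 promoters of the same length, 21.1% held TGGGAA, 12.3% TGTGGT, 13.2% CTTTGA, 9.16% AGATAA, 16.7% CAGGTG, 15.4% CCGGAA and 12.5% TATAAA. Among the Gimap promoters, TGTGGT was found in 3 of 8 (Gimap4, Gimap7 and Gimap1), CAGGTG in 1 (Gimap9), TATAAA in 1 (Gimap6), and the other 4 motifs in 0. No match overlapped another. The 3 TGTGGT matches all lay on the strand opposite to the gene, so they read ACCACA on the strand of the gene. The TATAAA match of Gimap6 also lay on the opposite strand, where it read TTTATA on the strand of the gene. Its position was -219 relative to the start. At Gimap7 (chr6:48718542-48718547) and Gimap1 (chr6:48738952-48738957) the match lay under the peak listed in wt alone, and at Gimap4 under no peak. The matches at Gimap9 (chr6:48676045-48676050) and Gimap6 (chr6:48708458-48708463) lay under peaks of both lists. A match describes the letters of the sequence and is no measured binding.

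The promoters of the 4 Gimap genes with a wt peak are shown, since the difference between both lists fell among them. The sequences are from RefSeq on GRCm38.p6, written 5′ to 3′ on the strand of the gene, with motif matches in capitals. They are chr6:48718371-48718620 (plus strand), chr6:48738797-48739046 (plus strand), chr6:48675885-48676120 (plus strand) and chr6:48708245-48708494 (minus strand). The 14 bases of Gimap9 inside the gene record are left out. Under the wt peaks lay 218 of the 250 bases of Gimap7, 97 of Gimap1 and all 250 of Gimap9 and of Gimap6. Under the ΔIkE120 peaks lay 250 of Gimap9 and 248 of Gimap6.
Gimap7: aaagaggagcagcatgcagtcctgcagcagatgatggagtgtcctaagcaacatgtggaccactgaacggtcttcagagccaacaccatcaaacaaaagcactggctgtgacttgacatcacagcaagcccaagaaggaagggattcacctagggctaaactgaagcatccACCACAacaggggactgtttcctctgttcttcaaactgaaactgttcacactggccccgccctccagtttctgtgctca
Gimap1: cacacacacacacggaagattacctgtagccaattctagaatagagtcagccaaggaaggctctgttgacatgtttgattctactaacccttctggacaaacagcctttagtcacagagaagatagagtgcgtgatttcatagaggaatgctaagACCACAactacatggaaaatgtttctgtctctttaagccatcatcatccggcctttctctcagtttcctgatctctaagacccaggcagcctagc
Gimap9: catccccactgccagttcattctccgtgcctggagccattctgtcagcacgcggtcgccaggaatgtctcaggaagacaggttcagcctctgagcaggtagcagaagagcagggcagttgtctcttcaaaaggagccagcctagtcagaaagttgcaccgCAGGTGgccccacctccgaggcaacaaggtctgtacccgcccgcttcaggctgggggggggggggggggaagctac
Gimap6: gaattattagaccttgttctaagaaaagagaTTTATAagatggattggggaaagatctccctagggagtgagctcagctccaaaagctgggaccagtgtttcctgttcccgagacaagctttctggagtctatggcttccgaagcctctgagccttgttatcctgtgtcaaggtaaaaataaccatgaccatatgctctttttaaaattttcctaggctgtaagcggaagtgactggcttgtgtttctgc

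In base composition, Gimap9 stood apart from the other members. Its 250 bases held 61.2% G or C and 8 CpG, against a median of 55.6% and 10 CpG over all promoters. The other 7 members held 43.6% to 55.6% G or C and 1 to 3 CpG. Gimap7 (50.8%, 2 CpG) and Gimap1 (44.4%, 3 CpG), with a peak in wt alone, thus had as few CpG as the 4 genes without a peak and as Gimap6 (43.6%, 3 CpG), which had a peak in both lists.

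Because Gimap genes are related in sequence, the windows of 1 kb on either side of the starts were also examined for stretches that occur more than once. Of the 36-base stretches in these windows, 85.7% to 100% occurred once in the mm9 genome, in which each window was found by its promoter sequence. The lowest share was at Gimap4 (85.7%), which had no peak in either list, and the shares at Gimap7 and Gimap1 were 99.4% and 97.6%. Gimap7 and Gimap3 were the only members to share a stretch. These shares describe the reference sequence alone. How the reads of either library mapped there was not tested.

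Other clusters of immune gene families, counted in the same way with 50 kb on either side, gave ratios of covered bases, ΔIkE120 to wt, closer to 1 than the 0.655 of the Gimap interval. For the Slfn genes on chromosome 11 the ratio was 0.936 (28 wt and 25 ΔIkE120 peaks), for the Gbp genes on chromosome 3 it was 1.06 (7 and 7), and for 24 Klr genes of the natural killer complex on chromosome 6 it was 0.911 (27 and 24). The spans were unlike, with 224 kb for Gimap, 435 kb for Slfn, 241 kb for Gbp and 1878 kb for Klr. With flanks of 100 kb the Gimap ratio was 0.827, and the other clusters were counted with 50 kb only. At the starts, 4 of 8 Slfn genes and 4 of 5 Gbp genes had a peak in both lists, and 0 of 27 Klr genes had a peak in either. Among 12 other genes of naive T cells and lymphocyte survival, Il7r, Klf2, S1pr1, Mcl1 and Bcl2l1 had no start peak in either list, as was the case for Gimap3, Gimap4, Gimap5 and Gimap8. The rest of the 12 had a start peak in at least 1 list. Over all 20919 protein-coding genes, 11408 had none in either list.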

How the data were processed

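H3K27ac ChIP-seq of wt and ΔIkE120 P5424 cells was analysed, with 1 library per genotype. The authors deposited a list of broad peaks per library, in coordinates of GRCm38, and only these lists were used. The deposited values of a peak are a score, a fold enrichment (a ratio), and the −log10 p and −log10 q. The submitters' processing notes name Bowtie2 2.3.4.3, Bowtie 1.0.0, deepTools 3.2.1 and MACS2 2.1.1, without saying which step each was used for. The protocol took an untreated input, and its use in peak calling, like the sequencing depth, is not given in the sources used here. Without replicates, no test was run and no p-value was computed. 4C-seq files were not used. Columns left unmapped numbered 0.

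Genes came from RefSeq on GRCm38.p6. Strand was known for 20919 of 21589 protein-coding genes (96.9%), from the RefSeq promoter table for 17274 and from GENCODE M1 by symbol for 3645. Peaks passed the ends of the mm9 chromosomes on 8 of 20 chromosomes, so mm9 coordinates were not used, and mm9 sequence served only to count stretches of 36 bases. A start had a peak if at least 1 base of the 1 kb on either side was covered. Peaks overlapped if they shared at least 1 base, and domains joined peaks up to 10 kb apart. Fold ratios used peaks that overlapped a single peak of the other list and were the only one to do so. The overlap code was checked on simulated lists against an exhaustive search.

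Named genes were the 8 members and every other gene with its start in the interval or, where the strand was not known, lying within it. In the comparison lists, genes were named where 5 or fewer stood apart. Part of the result for the list of naive T cell and survival genes is not reported here. Members and lists were chosen with earlier results of these data known, and the peaks with a −log10 q at or above that of Gimap1 or Gimap7 were counted after those values had been seen. Alternatives were dropping peaks below the list's median −log10 q, the same number of top peaks, flanks of 25 kb and 100 kb, windows of 500 bases and 2 kb, other transcript starts, an overlap of 50% and joining at 5 kb and 20 kb. Python 3.11.15, numpy 2.4.6, pandas 2.3.3 and matplotlib 3.10.9 were used.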

Additional observations from a re-analysis of the deposited data

How the results depend on the processing

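Values were called moved where they changed by over 1.5 times. Without the peaks below each list's median −log10 q, the interval held 6 wt peaks (4048 covered bases) and 4 ΔIkE120 peaks, of which 1 had no overlap in wt. In this setting 2 Gimap genes had a wt peak at the start, as in ΔIkE120, and 1 peak away from starts was shared. With flanks of 100 kb, wt peaks covered 10438 bases, and 11 ΔIkE120 peaks covered 8628. Joined at 5 kb, the longest domain was 4225 bases in wt and 4144 in ΔIkE120. At 20 kb it was 44124 and 44584, in both lists the domain of Zfp775 without a Gimap start. The remaining 39 of 52 values under these alternatives moved less. The ratio of covered bases, ΔIkE120 to wt, was 0.655 with the same number of top peaks from each list and 0.649 with flanks of 25 kb. With flanks of 100 kb it was 0.827, and above the median −log10 q 0.847. Both came near the 0.879 of the whole lists as deposited, so the distance of the interval from the whole lists depended on these choices. Depth limits all counts: only called peaks were analysed, with 1 library and 1 clone.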
